A study of Mus musculus with 18 samples.

Results

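Neonatal and adult mouse tendon cells that had received the same supernatant of stimulated neonatal T cells were compared by RNA sequencing. The comparison rests on 6 libraries of the 18 in the series, 3 of neonatal cells and 3 of adult cells. These libraries were set by their labels, but the comparison itself was chosen with earlier results of these data known. In both groups the cells were wild-type primary tendon fibroblasts, freed from tendon by digestion, passaged 2 times, frozen and thawed. Each starting well pooled the digest of 3 neonatal or 4 adult tendons, and thawed cells were cultured for 3 days before treatment. The medium was then replaced by equal volumes of complete DMEM and of the supernatant. The other 12 libraries are neonatal and adult cells given equal volumes of complete DMEM and adult T cell supernatant, and neonatal and adult cells given complete DMEM and unused T cell medium, 3 of each, and they serve here to show where the age difference changes with the treatment. Strain, exact age, sex and treatment time were not used here, as no label gives them. No label states that the 3 libraries of a group stem from different mice or wells, so p-values measure the spread between these samples, which may be technical. The title of the series sets the question: whether neonatal tendon cells respond to inflammatory T cell products less than adult ones do.

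Tendon fibroblasts make and organize the collagen of tendon, and Scx, the transcription factor scleraxis, marks their lineage from the embryo on. Stimulated T cells secrete interferon-gamma, interleukin-17, interleukin-4 and other cytokines, to which fibroblasts respond through receptors that signal by JAK kinases, STAT factors and NF-κB. Interferons switch on genes of cell-autonomous defence and of antigen presentation, many of them through a promoter element of repeated GAAA blocks that STAT and IRF proteins bind.

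The interferon response lists had some of the largest median differences between the ages, so the promoters of 3 members that fell in neonatal cells are shown. That of H2-T23, which fell and belongs to the MHC class I list, is added. All 4 are examples that contain the motif marked below, so they do not show how common it is. Each is the 300 bases of the RefSeq promoter table (build GRCm38.p6) from 250 before to 50 after the gene's start, 5′ to 3′ on the gene's own strand. Capitals mark GAAANNGAAA, the core of the interferon-stimulated response element, on either strand (TTTCNNTTTC on the other), and overlapping matches run together.
Isg15, a ubiquitin-like modifier, chr4:156200769-156201068, minus strand: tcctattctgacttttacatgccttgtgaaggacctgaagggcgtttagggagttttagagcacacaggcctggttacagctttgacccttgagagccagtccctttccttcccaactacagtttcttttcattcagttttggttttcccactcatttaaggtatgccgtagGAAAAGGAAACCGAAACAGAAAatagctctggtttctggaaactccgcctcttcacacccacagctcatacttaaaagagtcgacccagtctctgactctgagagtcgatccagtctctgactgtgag
Ifit1, an antiviral RNA-binding protein, chr19:34640639-34640938, plus strand: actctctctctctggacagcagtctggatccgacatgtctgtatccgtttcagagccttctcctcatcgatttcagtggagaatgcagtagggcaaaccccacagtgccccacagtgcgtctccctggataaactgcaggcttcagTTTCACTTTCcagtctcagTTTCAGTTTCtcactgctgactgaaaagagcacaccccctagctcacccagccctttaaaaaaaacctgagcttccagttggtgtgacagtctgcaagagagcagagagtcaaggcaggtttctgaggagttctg
Irgm1, an immunity-related GTPase, chr11:48871371-48871670, minus strand: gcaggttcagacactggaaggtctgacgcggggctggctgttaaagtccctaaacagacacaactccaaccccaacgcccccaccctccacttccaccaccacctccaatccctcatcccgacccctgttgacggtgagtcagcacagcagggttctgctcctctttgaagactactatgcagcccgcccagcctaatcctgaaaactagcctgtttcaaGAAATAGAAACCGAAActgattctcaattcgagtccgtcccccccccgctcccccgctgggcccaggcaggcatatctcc
H2-T23, a non-classical MHC class I chain, chr17:36032652-36032951, minus strand: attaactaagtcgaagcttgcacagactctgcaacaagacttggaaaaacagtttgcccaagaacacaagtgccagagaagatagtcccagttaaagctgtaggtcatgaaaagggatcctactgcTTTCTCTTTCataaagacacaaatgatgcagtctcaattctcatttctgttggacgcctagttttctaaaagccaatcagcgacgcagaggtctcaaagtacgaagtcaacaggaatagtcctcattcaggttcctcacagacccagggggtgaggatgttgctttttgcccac
The motif occurred 3 times in the Isg15 promoter, 2 times each in those of Ifit1 and Irgm1, and 1 time in that of H2-T23. It was present in 11 of the 17 interferon-gamma response genes with a promoter in the table, in 9 of 14 type I interferon response genes and in 5 of 17 genes of MHC class I and peptide loading. Of all 27025 genes with such a promoter in the table, 3.99% had it, or 3.44% of the 32851 promoters. Outside the interferon and MHC class I lists it was present in 4 of 29 receptor and JAK-STAT genes, 2 of 12 interleukin-17 targets, 6 of 44 ribosomal protein genes and 1 of 19 contractile genes, and in none of 7 complement genes. A match describes these letters alone and is not a measured binding site.

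The deposited values are log2 CPM, the log2 of a gene's share of its library's reads scaled to a common total. Levels below are given as CPM turned back from them, differences as log2 units of neonatal minus adult cells with their standard error, and a difference of 1 log2 unit is 2-fold. An offset within the deposited values makes the fold of low genes too small, and 0.127 CPM is the lowest value in the table, shared by all 18 libraries. Calls required an adjusted p (Benjamini-Hochberg, over all 14391 genes) under 0.05 in a limma fit of all 18 libraries, and "rose" and "fell" are used of called genes alone. Correlations of log2 CPM across genes were 0.971 to 0.980 among the neonatal-cell libraries, 0.970 to 0.973 among the adult-cell libraries and 0.938 to 0.958 between them.

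Further members of the lists are named as examples chosen after their values were seen. Single libraries stood apart in several lists. Adult-cell library 3 was lower than the other adult libraries in 23 of 24 interferon-gamma response genes, in all 22 type I interferon response genes and in all 20 genes of MHC class I and peptide loading. Neonatal-cell library 3 was low in interleukin-17 targets, whose mean was 4.48, 5.00 and 2.98 log2 CPM in the neonatal-cell libraries and 4.56, 4.31 and 4.31 log2 CPM in the adult-cell ones. Without supernatant, neonatal-cell library 1 and adult-cell library 2 were high in type I interferon response genes. Defining tendon genes were unevenly present: Tnmd stood at 4.78, 5.54 and 8.37 CPM in neonatal cells and 2.09, 4.57 and 2.66 CPM in adult cells, and Scx was low in adult cells (values below). The fibroblast marker Thy1 stood at 354, 333 and 357 CPM in neonatal cells and 331, 416 and 428 CPM in adult cells and was not called (adjusted p = 0.12). Pdgfra, the PDGF receptor of fibroblasts, was well expressed at both ages yet lower in neonatal cells, at 52.1, 60.97 and 54.9 CPM against 185, 222 and 213 CPM in adult cells (-1.88 ± 0.15, adjusted p = 2e-07).

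The sex of the cultures cannot be told apart from age. The Y-linked Ddx3y stood at 28.4, 31.5 and 35.1 CPM in neonatal cells against 4.17, 2.93 and 6.15 CPM in adult cells, and Eif2s3y at 19.8, 21.9 and 16.3 against 1.98, 2.72 and 4.35 CPM. The other Y-linked genes differed less, with Kdm5d at 14.3, 15.00 and 14.6 CPM in neonatal cells and 10.9, 8.55 and 8.26 CPM in adult cells. As these are bulk cultures, fewer cells of a type and less RNA per cell cannot be told apart in any result below.

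With neonatal supernatant, 4290 of 14391 genes (29.8%) were called, 2515 higher (17.5%) and 1775 lower (12.3%) in neonatal than in adult cells. Scaling by a trimmed mean of ratios (TMM) in place of the library total gave 1927 higher and 2194 lower, so which direction held more genes depended on the scaling. With adult supernatant TMM gave 1247 higher and 1248 lower, against 2120 and 844 as deposited, so that the shares of all genes given below for that condition depend on the scaling too. Among the 1019 called genes of at least 2-fold, 295 were higher and 724 lower. Groups of libraries that did not overlap, whatever the test, were found for 43.3% of genes. The median difference over all genes was 0.01.

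**Figure D1:**
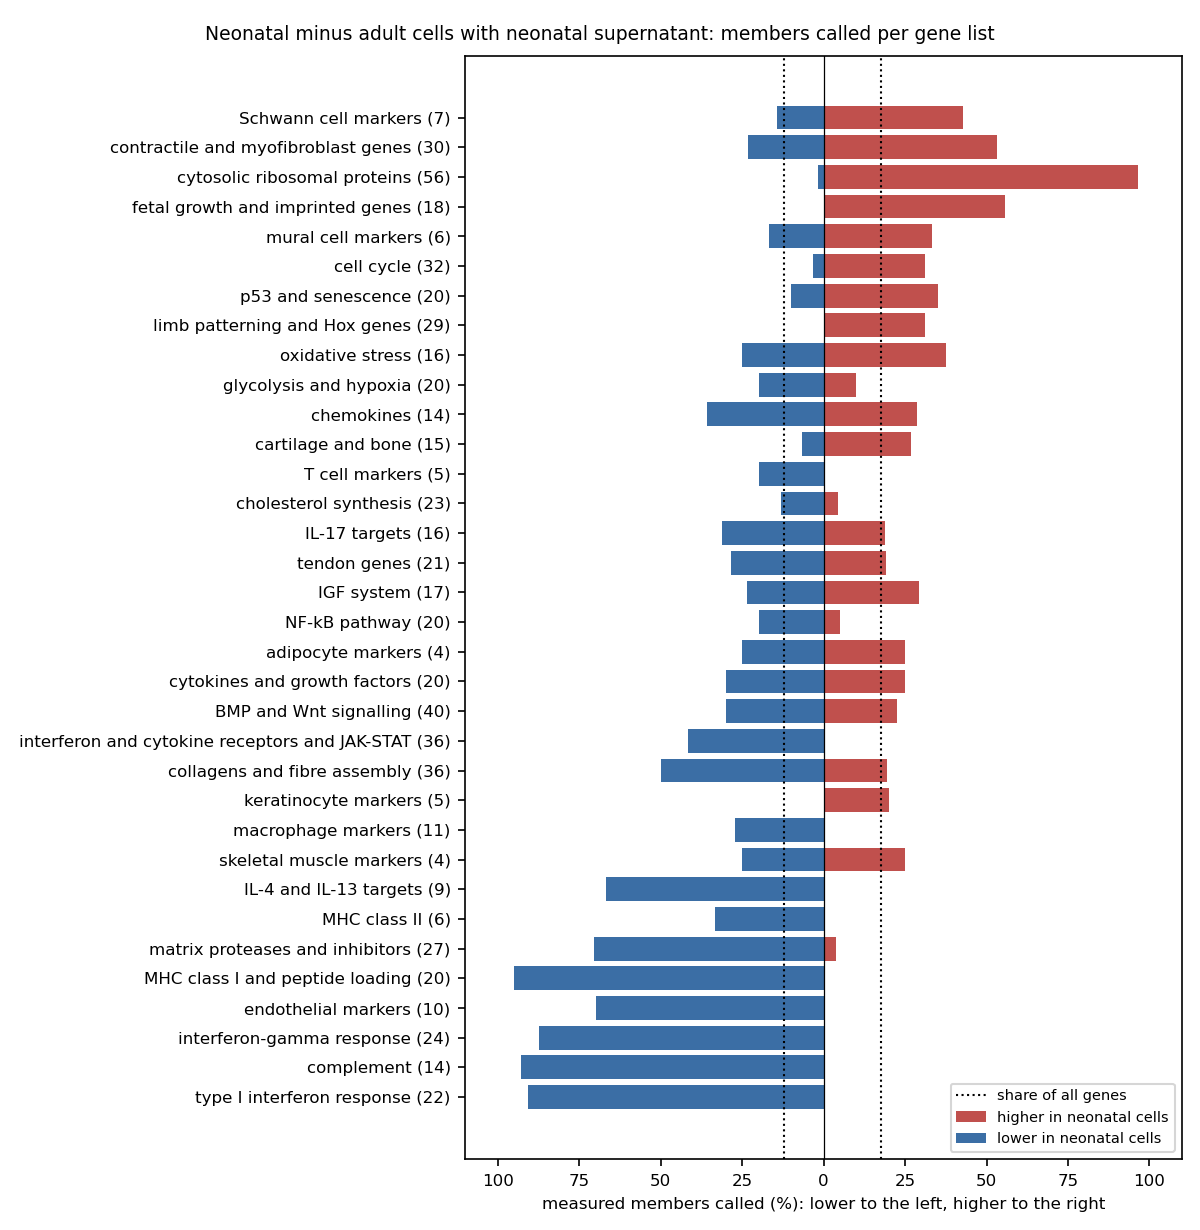
Percent of measured members of each gene list called higher or lower in neonatal than in adult cells, both with neonatal supernatant, from the limma fit, with the share of all genes called in each direction drawn as dotted lines (17.5% higher, 12.3% lower). Interferon, MHC class I and complement lists lie almost wholly on the lower side, and cytosolic ribosomal proteins almost wholly on the higher side.

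The interferon-gamma response was lower in neonatal cells. Of 24 measured members 21 fell and none rose, with a median difference of -1.74 against 0.01 over all genes. The summed level of the list was 378, 427 and 471 CPM in the neonatal-cell libraries, against 2529, 2084 and 744 CPM in the adult-cell libraries, so that even the low adult library 3 stood above every neonatal one. Without adult library 3 the median was -2.27 with 21 members lower, and without adult library 1 it was -1.42 with 17 lower.

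Irf1, a transcription factor that interferon-gamma induces, stood at 25.6, 26.1 and 29.2 CPM in neonatal cells, against 118, 91.4 and 47.9 CPM in adult cells (-1.58 ± 0.21, adjusted p = 3.4e-05). Immunity-related GTPases, which disrupt the vacuoles of intracellular pathogens, showed wide gaps. Iigp1 stood at 20.4, 32.4 and 45.3 CPM in neonatal cells, against 642, 469 and 95.5 CPM in adult cells (-3.30 ± 0.65, adjusted p = 0.001). Irgm1, whose promoter is shown above, stood at 29.9, 31.7 and 46.7 CPM in neonatal cells, against 219, 219 and 68.1 CPM in adult cells (-2.07 ± 0.39, adjusted p = 0.00081). In both of these genes the neonatal libraries were all below the lowest adult one, and library 3 was the lowest adult one by far. Tgtp2 fell by 3.12 and Tgtp1 by 2.66 (adjusted p = 8e-05 and 0.0008), and reads of this near-identical pair may be split between them. Nos2, the inducible nitric oxide synthase, was 10.3, 5.58 and 3.64 CPM in neonatal cells and 41.3, 25.8 and 11.3 CPM in adult cells (-1.95 ± 0.38, adjusted p = 0.00096). Its libraries did not overlap, though the highest neonatal value came close to the lowest adult one. The CXCR3 ligands Cxcl9 and Cxcl10, which attract T cells, passed the threshold narrowly at low level, with Cxcl10 at 1.02, 0.802 and 0.958 CPM in neonatal cells and 3.05, 2.55 and 1.40 CPM in adult cells (adjusted p = 0.04, and 0.048 for Cxcl9). The 3 members not called were Gbp6 at -1.34 ± 0.59, Socs1 at -0.49 ± 0.71 and Gbp4 at -0.18 ± 1.08.

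Type I interferon response genes were lower in neonatal cells as well. Of 22 measured members 20 fell and none rose, with a median of -2.70. Their summed level was 109, 114 and 134 CPM in neonatal cells, against 679, 975 and 225 CPM in adult cells. Oasl2, of the oligoadenylate synthetase family of RNA sensors, was 1.90, 1.85 and 3.19 CPM in neonatal cells, against 66.02, 87.5 and 10.4 CPM in adult cells (-4.13 ± 0.93, adjusted p = 0.003). Isg15 was 2.49, 1.85 and 1.81 CPM in neonatal cells, against 21.00, 38.2 and 5.28 CPM in adult cells (-3.00 ± 0.96, adjusted p = 0.026), and Ifit1 was 2.89, 3.13 and 2.07 CPM against 36.2, 72.1 and 9.65 CPM in adult cells (-3.46 ± 1.07, adjusted p = 0.022). For all 3 genes the adult libraries ran from low to high in the same order, library 3 below 1 and 1 below 2, while the neonatal libraries stayed together. The RNA sensor Ifih1 fell by 2.30 and its relative Dhx58 by 2.24, and Mx1, an antiviral GTPase with little spread in either group, was 6.71, 8.06 and 7.18 CPM in neonatal cells against 18.6, 17.2 and 15.9 CPM in adult cells (-1.24 ± 0.19, adjusted p = 0.00012). The count depended on single libraries of both ages. Without adult library 2, 10 members were lower (median -2.05), without adult library 1, 11, and without adult library 3, 21 (median -3.46). Without neonatal library 1 or 2, 13 were lower each, and without neonatal library 3, 14. Ifit2 and I830012O16Rik were not called, at -0.60 ± 0.31 and -1.79 ± 1.00.

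Antigen presentation by MHC class I followed. Of 20 measured members, 19 fell and none rose (median -1.18), and 18 or 19 fell whichever of the 6 libraries was left out. A fit of these 6 libraries alone, without the spread of the other groups, gave 15 lower. H2-T23, a non-classical class I chain, was 23.6, 30.4 and 19.96 CPM in neonatal cells, against 143, 161 and 78.9 CPM in adult cells (-2.33 ± 0.21, adjusted p = 7.7e-07). H2-K1, a classical class I chain that presents peptides to CD8 T cells, was 133, 165 and 129 CPM in neonatal cells, against 622, 546 and 239.7 CPM in adult cells (-1.61 ± 0.25, adjusted p = 0.00014). Every adult library of these genes lay above all neonatal libraries. The immunoproteasome subunits Psmb9, Psmb8 and Psmb10, which cut proteins into presentable peptides, fell by 2.35, 2.46 and 1.59. Tap1 and Tap2, which carry peptides into the endoplasmic reticulum, fell by 1.02 and 1.04, and B2m, the light chain, by 0.87. Nlrc5, the transactivator of these genes, was not called (-0.49 ± 0.40). Reads of the related chains H2-Q6 and H2-Q7 may be split, so their differences of -2.23 and -1.56 are uncertain. MHC class II genes were low at both ages, and the antigen-presenting chain H2-Ab1 was 5.78, 7.94 and 3.23 CPM in neonatal cells and 8.88, 7.38 and 9.83 CPM in adult cells (adjusted p = 0.065). Of 6 class II members, H2-DMb1 and H2-Aa fell (1 without adult library 2), H2-Aa with under 1 CPM in each of the 6 libraries.

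**Figure D2:**
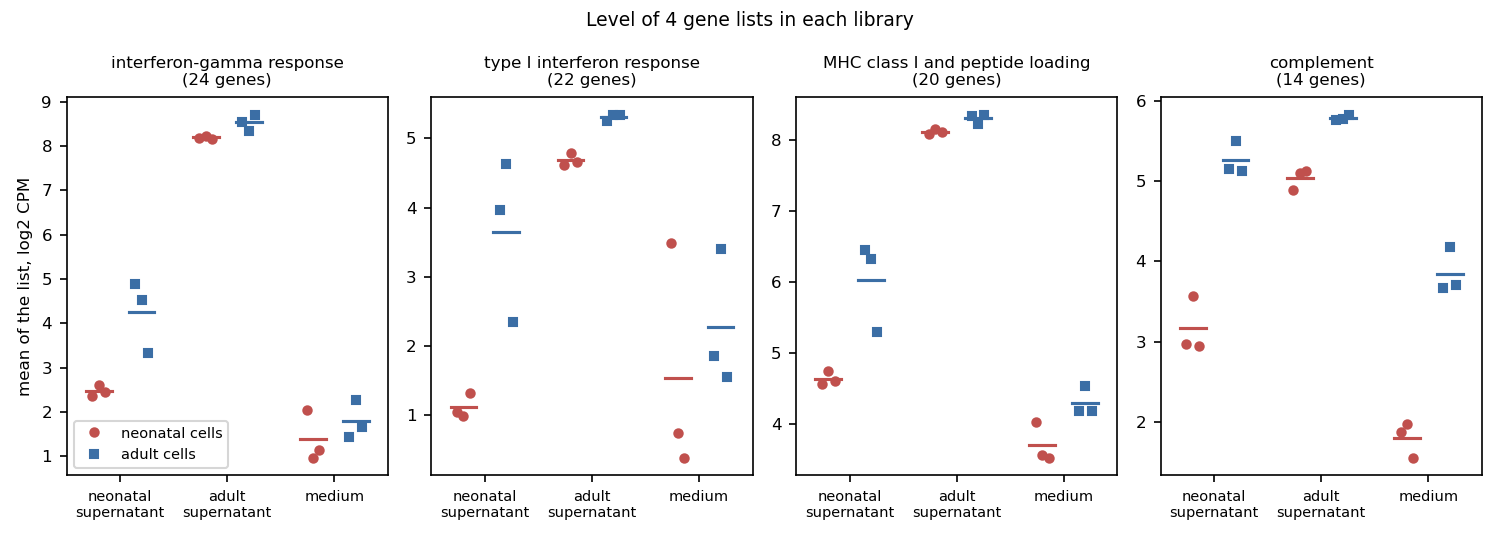
Mean log2 CPM of the members of 4 gene lists (vertical axis) in each library, neonatal cells (circles) left of adult cells (squares) within each condition, with a bar at the mean of the 3 libraries. With neonatal supernatant the interferon-gamma list stood at 2.37, 2.60 and 2.45 in neonatal cells against 4.89, 4.52 and 3.34 in adult cells, and with adult supernatant both ages lay above 8 log2 CPM.

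Fewer members of the interferon and MHC class I lists were called in the other conditions. In medium 5 of the 20 MHC class I members were lower in neonatal cells (12% of all genes were) with a median of -0.47. With adult supernatant 1 was (5.86% of all genes) with a median of -0.18. Of the 22 type I members 1 was lower in medium (median -0.69) and 1 with adult supernatant (median -0.55). Without supernatant 3 of the 24 interferon-gamma members were lower in neonatal cells (12% of all genes were) with a median of -0.56, and with adult supernatant 2 were (5.86% of all genes) with a median of -0.24. The mean level of the list with adult supernatant was 8.19, 8.23 and 8.16 log2 CPM in neonatal cells and 8.54, 8.34 and 8.71 log2 CPM in adult cells, and in medium it was 2.04, 0.96 and 1.14 log2 CPM in neonatal cells and 1.44, 2.28 and 1.66 log2 CPM in adult cells. Iigp1 shows the range: with adult supernatant it was 3052, 3155 and 3043 CPM in neonatal cells and 3513, 3392 and 3691 CPM in adult cells. Whether the age gap itself differed between conditions was tested per gene. Against adult supernatant the gap was wider for Irf1 (-1.33 ± 0.30), Tgtp2 and Tgtp1 of this list (1.16% of all genes were called in that direction), and for H2-T23, H2-M3, Psmb9 and Erap1 of the MHC class I list. Against medium no listed interferon or MHC class I member had a more negative difference at the threshold, where 0.361% of all genes did, and no type I member was called in either test. The member called there was Icam1, a leukocyte adhesion molecule, with a more positive difference (0.79 ± 0.15, adjusted p = 0.024). Ifi47, an interferon-inducible GTPase outside the lists, was 3.07, 3.34 and 3.17 CPM in neonatal cells, against 73.4, 66.3 and 16.1 CPM in adult cells (-3.74 ± 0.49, adjusted p = 3e-05), a wider gap than in medium (-3.27 ± 0.70, adjusted p = 0.034) and than with adult supernatant (-3.42 ± 0.70, adjusted p = 0.018). Its fall with neonatal supernatant enters both of these tests, and this 1 gene does not stand for the listed members.

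Receptors and signal carriers were examined next, since they stand before these genes in the pathway. Of 36 measured receptors, JAK kinases, STAT factors and SOCS inhibitors 15 fell and none rose (median -0.29). Ifngr1, the ligand-binding chain of the interferon-gamma receptor, was 35.5, 37.9 and 33.8 CPM in neonatal cells, against 46.9, 45.5 and 43.6 CPM in adult cells (-0.34 ± 0.09, adjusted p = 0.0062). The second chain, Ifngr2, was not called, at 86.8, 91.1 and 85.04 CPM in neonatal cells and 78.9, 86.3 and 88.8 CPM in adult cells (0.05 ± 0.10). Of the type I receptor, Ifnar2 fell by 0.54 and Ifnar1 was not called (-0.05 ± 0.08), and of the kinases, Jak1 fell by 0.30 and Jak2 was not called (-0.26 ± 0.15). Stat2, a carrier of interferon signals that interferon itself induces, fell by 1.94. The receptors Tnfrsf1b for TNF, Il1r1 for interleukin-1, Lifr for leukaemia inhibitory factor and Il4ra for interleukin-4 and interleukin-13 fell by 1.25, 1.09, 1.25 and 0.77. Il17ra, Tnfrsf1a, Stat3 and Socs3 were not called (-0.32 ± 0.18, -0.02 ± 0.05, -0.01 ± 0.08 and 0.06 ± 0.19). The gap in Ifngr1 was also seen without supernatant (-0.52) and with adult supernatant (-0.34).

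Complement was lower in neonatal cells in each condition. Of 14 measured components and regulators 13 fell and none rose (median -2.12), and at least 12 fell under every alternative tried. C3, on which all complement pathways converge, was 123, 202 and 65.5 CPM in neonatal cells, against 934, 1140.2 and 751 CPM in adult cells (-2.98 ± 0.38, adjusted p = 2.3e-05). C1s1, a protease of the first component, was 68.6, 105 and 55.2 CPM in neonatal cells, against 467, 485 and 389 CPM in adult cells (-2.60 ± 0.17, adjusted p = 2.5e-08). Every adult library lay above every neonatal one in either gene. Serping1, the inhibitor of that protease, and C4b fell by 3.07 and 3.10. Cd55, which dissolves C3 convertases, was not called (-0.19 ± 0.12). In medium all 14 members were lower in neonatal cells (median -1.98, 12% of all genes being lower there). With adult supernatant 7 were (median -0.81, 5.86% of all genes). The gap in C1s1 was wider with neonatal than with adult supernatant (-1.96), and its level with adult supernatant was 716, 826 and 729 CPM in neonatal cells and 1159, 1133 and 1228 CPM in adult cells. In all, 7 complement genes had a wider gap than with adult supernatant (1.16% of all genes had a more negative difference). None had a wider gap than in medium (0.361% of all genes).

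Chemokines were split: of 14 measured, 4 rose and 5 fell (median -0.031). Without neonatal library 3, the lowest neonatal one in 11 of the 14, 6 rose and 5 fell (median 0.086), while 2 rose and 5 fell without neonatal library 2 (median -0.25) or without adult library 3. Cxcl12, the ligand of CXCR4 that fibroblasts secrete without stimulation, was 53.7, 75.1 and 47.5 CPM in neonatal cells, against 704, 875 and 821 CPM in adult cells (-3.79 ± 0.15, adjusted p = 2.7e-11). The difference was -3.45 in medium and -3.89 with adult supernatant. Ccl8, which attracts monocytes and T cells, was 38.4, 51.96 and 40.9 CPM in neonatal cells, against 720.3, 730.3 and 358 CPM in adult cells (-3.72 ± 0.21, adjusted p = 4.6e-09). Ccl11, the eosinophil attractant eotaxin, was 76.3, 122 and 88.2 CPM in neonatal cells, against 703, 949 and 512 CPM in adult cells (-2.90 ± 0.31, adjusted p = 3.8e-06). For these 3 genes the highest neonatal library lay below the lowest adult one. Cxcl14 and Cxcl16 fell by 1.65 and 1.62. Ccl20, Cxcl3 and Cxcl2, attractants of Th17 cells and neutrophils, rose at low level: Cxcl3 was 19.5, 17.8 and 4.71 CPM in neonatal cells and 2.85, 2.09 and 3.27 CPM in adult cells (2.13 ± 0.53, adjusted p = 0.0058), lowest among neonatal libraries in library 3. The monocyte attractants split as well, since Ccl7 rose by 0.30 and Ccl2 was not called (0.05 ± 0.12).

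Other secreted factors also divided, with 5 of 20 higher and 6 lower. The alarmin Il33 was 1.39, 1.98 and 0.868 CPM in neonatal cells, against 12.4, 9.61 and 11.4 CPM in adult cells (-3.05 ± 0.40, adjusted p = 3.2e-05). Fgf10, a mitogen of limb development, went the other way, at 38.7, 36.5 and 38.5 CPM in neonatal cells against 16.99, 16.5 and 11.2 CPM in adult cells (1.37 ± 0.18, adjusted p = 2.9e-05). The EGF receptor ligands Hbegf and Ereg rose by 1.29 and 1.00. The growth factors Hgf and Fgf2 fell by 1.40 and 2.14 and the interleukin-1 receptor antagonist Il1rn by 1.03. Il6 was not called, at 21.03, 21.3 and 8.45 CPM in neonatal cells and 7.60, 8.96 and 8.56 CPM in adult cells (0.90 ± 0.51, adjusted p = 0.2), its neonatal library 3 lying within the adult range. Csf1, the macrophage growth factor, was not called, at 2574, 2496 and 2554 CPM in neonatal cells and 2670.0, 2447 and 2713 CPM in adult cells (-0.04 ± 0.07).

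Targets of interleukin-17 showed no common direction, with 3 of 16 higher, 5 lower and a median of -0.12. Of these, Mmp3 and Mmp13 are also counted as matrix proteases and Cxcl2 and Ccl20 as chemokines. Saa3, an acute-phase protein, was 64.1, 92.5 and 5.39 CPM in neonatal cells, against 186, 143 and 101 CPM in adult cells (-2.13 ± 0.66, adjusted p = 0.022). Lcn2, an iron-binding defence protein, was 11.3, 21.9 and 0.969 CPM in neonatal cells and 19.3, 12.2 and 15.4 CPM in adult cells and was not called (-1.31 ± 0.73). In both genes neonatal library 3 was far below the other neonatal libraries, and it was the lowest neonatal library in all 16. Without it 5 were higher and 4 lower and the median turned to 0.18, while without neonatal library 2, 1 was higher and 6 lower (median -0.34). Without adult library 1, 2 were higher and 3 lower, and without adult library 2, 3 each. Targets of interleukin-4 and interleukin-13 were lower as far as they were called, 6 of 9 (median -0.76), among them the decoy receptor Il13ra2 at 12.4, 18.3 and 6.50 CPM in neonatal cells against 51.4, 36.96 and 21.03 CPM in adult cells (-1.59 ± 0.43, adjusted p = 0.01). Without neonatal library 3, 3 of these 9 were lower. In medium 4 of the 9 were lower in neonatal cells (median -0.47, 12% of all genes being lower there). With adult supernatant 3 were (median -0.54, 5.86% of all genes). No member was called for a change of the age difference against either condition. In the NF-κB list 1 of 20 rose and 4 fell (median -0.24), and neonatal library 3 was the lowest neonatal one in 17 of the 20. Its median was -0.087 without that library and -0.36 without neonatal library 2. The member that rose was Ptgs2, the inducible cyclooxygenase of prostaglandin synthesis, at 1293, 1255 and 828 CPM in neonatal cells against 507, 344 and 442 CPM in adult cells (1.37 ± 0.21, adjusted p = 0.0001). Vcam1, an adhesion molecule for leukocytes, was 134, 148 and 107 CPM in neonatal cells, against 308, 318 and 287 CPM in adult cells (-1.24 ± 0.10, adjusted p = 1.4e-07). The inhibitors Nfkbia and Tnfaip3, early NF-κB targets, were not called (0.01 ± 0.16 and 0.21 ± 0.31).

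**Figure D3:**
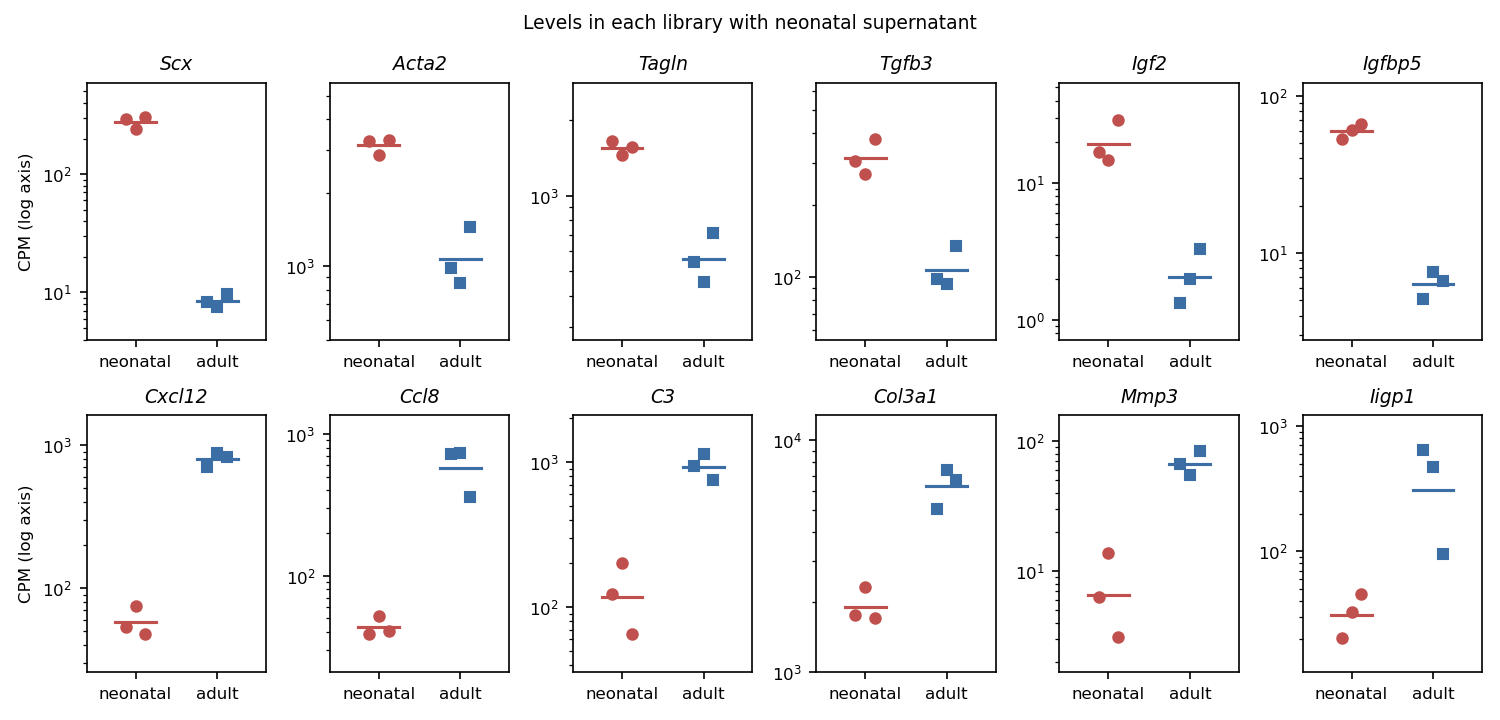
CPM (log axis) of 12 genes in each of the 6 libraries given neonatal supernatant, neonatal cells (circles) left of adult cells (squares), and a bar at the mean of log2 CPM over the 3 libraries. Scx, Acta2, Tagln, Tgfb3, Igf2 and Igfbp5 lie higher in neonatal cells and Cxcl12, Ccl8, C3, Col3a1, Mmp3 and Iigp1 lower, with no overlap between the ages.

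Scx carried one of the largest differences of all genes. It was 295, 239 and 306 CPM in neonatal cells, against 8.33, 7.60 and 9.61 CPM in adult cells (5.04 ± 0.22, adjusted p = 1.8e-10), with differences of 4.50 in medium and 5.32 with adult supernatant. Other tendon genes did not share it: of 21 measured, 4 rose and 6 fell (median -0.19), against 2 and 5 without adult library 1. Tnmd, the late tendon marker tenomodulin whose low values are given above, rose by 1.04 (adjusted p = 0.015). Mkx, the tendon factor mohawk, was 15.9, 19.5 and 21.5 CPM in neonatal cells and 11.8, 16.5 and 15.4 CPM in adult cells and was not called (0.39 ± 0.27), although it was higher in neonatal cells in medium (1.18, adjusted p = 0.0034). The matrix proteins Thbs4 and Col12a1 rose by 0.85 and 0.65. Decorin (Dcn), which binds collagen fibrils, was 85.1, 143 and 41.8 CPM in neonatal cells, against 162, 176 and 174 CPM in adult cells (-1.09 ± 0.32, adjusted p = 0.015), lowest in neonatal library 3. Comp, Fmod, Tnc and Prg4 were not called.

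Collagens and their assembly genes were more often lower, with 18 of 36 lower and 7 higher (median -0.42). Under TMM scaling 3 were higher and 18 lower, and 3 or 4 were higher without neonatal library 1 or 2 or adult library 1 or 2, each time with 17 or 18 lower. Col3a1, the collagen of thin fibrils and of healing tissue, was 1759, 2315 and 1714 CPM in neonatal cells, against 5049, 7421 and 6753 CPM in adult cells (-1.73 ± 0.15, adjusted p = 5.9e-07). Col1a1, the main tendon collagen, was not called, at 16017, 17433 and 15528 CPM in neonatal cells and 12724, 12615 and 17165 CPM in adult cells (0.22 ± 0.10, adjusted p = 0.11), and its partner chain Col1a2 fell by 0.48. Col11a1, a fibril-nucleating collagen, was 156, 166 and 150.3 CPM in neonatal cells, against 52.4, 64.02 and 75.00 CPM in adult cells (1.32 ± 0.14, adjusted p = 4.8e-06). Col8a1, Col6a1, Col6a2 and Col16a1 fell by 1.17, 0.71, 0.81 and 0.89. The cross-linking enzyme Lox fell by 0.43, while Loxl4 rose by 0.60.

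Matrix proteases and their inhibitors were lower in neonatal cells: 19 of 27 fell and 1 rose (median -1.07). Mmp2, a gelatinase, was 263, 293 and 275 CPM in neonatal cells, against 657, 789.6 and 836 CPM in adult cells (-1.45 ± 0.11, adjusted p = 5.7e-08). Mmp3, the stromelysin, was 6.35, 13.8 and 3.14 CPM in neonatal cells, against 66.00, 54.4 and 83.6 CPM in adult cells (-3.37 ± 0.43, adjusted p = 2.3e-05), and the collagenase Mmp13 fell by 2.32. Adamts2, which trims procollagen, was 54.04, 66.1 and 46.8 CPM in neonatal cells, against 185, 224 and 213 CPM in adult cells (-1.91 ± 0.14, adjusted p = 7.5e-08). None of these groups of libraries overlapped. The aggrecanase Adamts5 fell by 1.21, the lysosomal protease Ctsk by 1.15, and the inhibitors Timp3 and Timp1 by 0.86 and 0.33. The member that rose, Mmp16, did so by 0.46 (adjusted p = 0.045) and was not called under several alternatives. In medium 15 members were lower (12% of all genes were) and with adult supernatant 10 (5.86% of all genes). Mmp11, a further metalloproteinase, differed between supernatants, since it fell by 1.38 with neonatal supernatant and was 0.16 ± 0.12 with adult supernatant, a change of -1.54 (adjusted p = 0.00031).

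Contractile and myofibroblast genes were more often higher in neonatal cells. Of 30 measured 16 rose and 7 fell (median 0.62), with 15 to 17 higher and 6 or 7 lower under every alternative except the 2-fold limit. At 2-fold or more 11 were higher and 3 lower. Acta2, the smooth muscle actin that defines myofibroblasts, was 3247, 2857 and 3291 CPM in neonatal cells, against 985, 851 and 1449 CPM in adult cells (1.55 ± 0.20, adjusted p = 2.2e-05). Tagln, an actin-binding protein, was 1651, 1457 and 1571 CPM in neonatal cells, against 544, 454 and 712 CPM in adult cells (1.48 ± 0.17, adjusted p = 7.9e-06). The actin, myosin and tropomyosin genes Actg2, Myl9, Tpm1 and Tpm2 rose by 1.75, 1.52, 1.06 and 1.39, and Cnn1 and Lmod1 by 2.16 and 2.00. In each of them the adult libraries, of which library 3 was the highest, lay below the neonatal ones. TGF-beta ligands rose too: Tgfb3, needed for tendon formation, was 307, 269 and 379 CPM in neonatal cells, against 97.8, 93.5 and 135 CPM in adult cells (1.56 ± 0.17, adjusted p = 4.5e-06), and Tgfb2 rose by 1.28. Ltbp1, which stores latent TGF-beta in the matrix, was 329.6, 285 and 317 CPM in neonatal cells, against 93.9, 112 and 116 CPM in adult cells (1.54 ± 0.10, adjusted p = 2.5e-08). The receptors Tgfbr1, Tgfbr2 and Tgfbr3 fell by 0.45, 0.83 and 0.64, and Tgfb1 and the TGF-beta target Ctgf were not called (-0.18 ± 0.13 and -0.07 ± 0.18). The age difference of Acta2 was smaller in medium (0.82) and similar with adult supernatant (1.63), and neither change was called (adjusted p = 0.25 and 0.93).

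**Figure D4:**
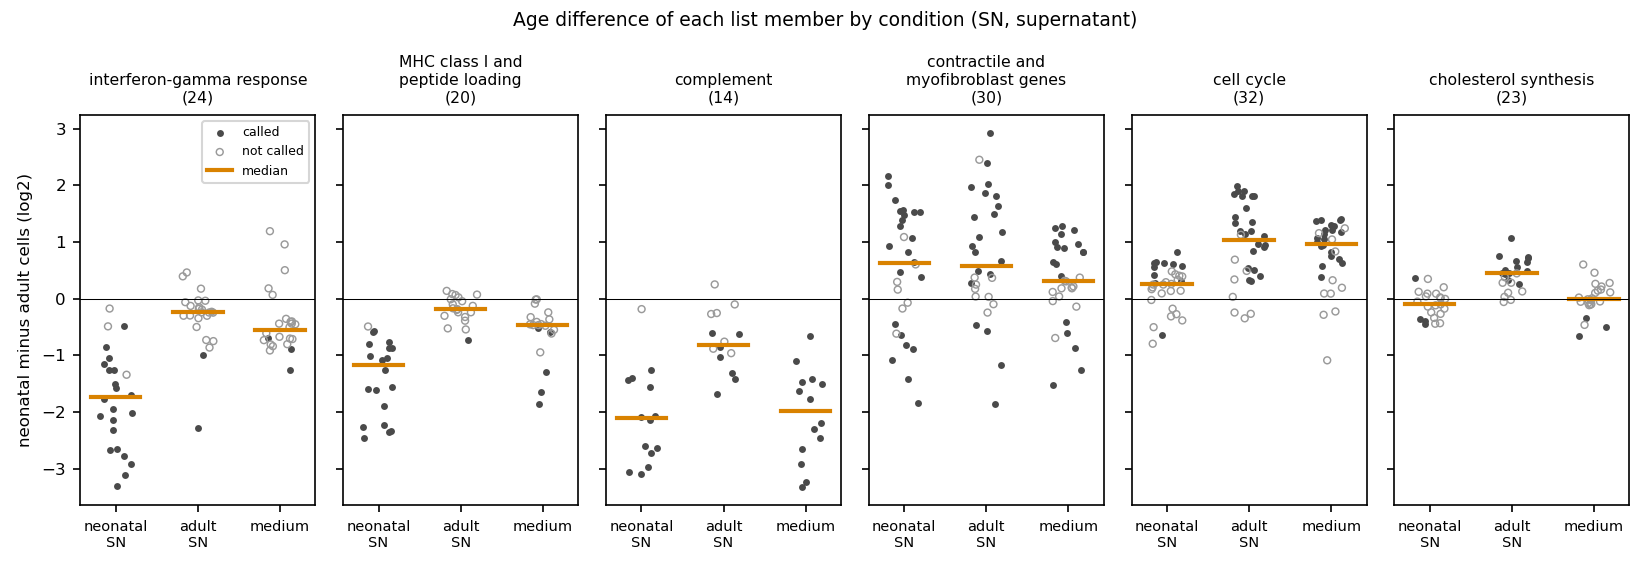
Neonatal minus adult log2 difference of each measured member of 6 lists with neonatal supernatant (neonatal SN), adult supernatant (adult SN) and medium, filled where called, with a bar at the median. The interferon-gamma list has medians of -1.74, -0.24 and -0.56 in that order, the cell cycle list 0.26, 1.03 and 0.97, and the contractile list 0.62, 0.58 and 0.31.

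Fetal growth genes rose where they were called. Of 18 fetal growth and imprinted genes 10 rose and none fell (median 0.49). Igf2, the fetal growth factor, was 16.8, 14.8 and 28.9 CPM in neonatal cells, against 1.32, 1.98 and 3.27 CPM in adult cells (3.24 ± 0.46, adjusted p = 5.7e-05). Hmga2, a chromatin protein of growing tissue, was 289, 275 and 272 CPM in neonatal cells, against 182, 150.5 and 156 CPM in adult cells (0.78 ± 0.07, adjusted p = 6.1e-07), while with adult supernatant it was not called, at 478, 483 and 475 CPM in neonatal cells and 439.8, 421 and 421 CPM in adult cells (0.16 ± 0.07, adjusted p = 0.11). The RNA-binding proteins Igf2bp1, Igf2bp2 and Igf2bp3 rose by 1.90, 0.35 and 0.95, and the imprinted genes Grb10, Ndn, Peg3, Zim1 and Plagl1 by 0.71, 0.62, 1.46, 1.01 and 0.95. In the IGF system, 5 of 17 rose and 4 fell, but 2 rose without neonatal library 3 (5 lower), without adult library 1 or without adult library 2 (4 lower each). Igfbp5, an IGF-binding protein, was 53.4, 60.7 and 66.4 CPM in neonatal cells, against 5.08, 7.61 and 6.65 CPM in adult cells (3.24 ± 0.33, adjusted p = 2.9e-06), and Igf1 was 7.27, 16.8 and 12.3 CPM in neonatal cells, against 29.9, 33.3 and 40.2 CPM in adult cells (-1.58 ± 0.26, adjusted p = 0.00023). Igf2 and Igf1 thus differed in opposite directions.

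Of 29 limb patterning and Hox genes 9 rose and none fell, while 4 rose without neonatal library 1 and 6 without adult library 3. Tbx4, the hindlimb factor, was 28.02, 26.4 and 28.5 CPM in neonatal cells, against 14.5, 15.2 and 17.4 CPM in adult cells (0.82 ± 0.09, adjusted p = 6.1e-06), and its upstream regulator Pitx1 rose by 0.59. Hoxd11, of the distal limb, rose by 1.13 and Hoxa11 was not called (0.09 ± 0.08). In BMP and Wnt signalling 9 of 40 rose and 12 fell. Wnt4 was 25.2, 22.9 and 29.6 CPM in neonatal cells, against 6.33, 4.44 and 5.56 CPM in adult cells (2.26 ± 0.17, adjusted p = 8.6e-08), and the BMP targets Id1, Id2 and Id3 rose by 1.02, 0.92 and 0.56. Sfrp1, a secreted Wnt antagonist, was 442, 615 and 408 CPM in neonatal cells, against 1422, 1411 and 1334 CPM in adult cells (-1.53 ± 0.13, adjusted p = 3.4e-07). The Wnt antagonists Dkk2 and Dkk3 fell by 1.09 and 0.90. Among cartilage and bone genes 4 of 15 rose and 1 fell, Col10a1 rising by 1.39 and Spp1, the matrix protein osteopontin, at -0.97. These counts were unstable, with 1 higher and 2 lower without adult library 2, 4 and 4 without adult library 1, 2 and 2 without neonatal library 2 or 3, and 3 and 4 under TMM scaling.

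Ribosomal protein genes were higher almost without exception. Of 56 measured 54 rose and 1 fell (median 0.49), and 53 or 54 rose under every alternative including TMM, except the 2-fold limit. The differences were mostly small, and at 2-fold or more 1 was higher and 1 lower. Their summed level was 23698, 22528 and 22009.5 CPM in neonatal cells, against 16349, 16297 and 16469 CPM in adult cells. The gene that fell, Rpl34, was 87.1, 91.2 and 87.4 CPM in neonatal cells, against 194, 197 and 189 CPM in adult cells (-1.13 ± 0.08, adjusted p = 2.5e-08), but its near-identical copy Rpl34-ps1 was 58.6, 56.9 and 52.5 CPM in neonatal cells and 0.747, 0.627 and 0.602 CPM in adult cells. With both added the levels were 146, 148 and 139.9 CPM in neonatal cells, against 194, 198 and 189.7 CPM in adult cells. How reads were divided between these copies was not tested.

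Fewer cell cycle genes were called with neonatal supernatant than in the other conditions. Of 32 measured 10 rose and 1 fell (median 0.26), against 21 higher of 32 in medium (median 0.97, 16.7% of all genes being higher there) and 24 with adult supernatant (median 1.03, 14.7% of all genes). Mki67, a marker of cycling cells, was 38.5, 36.1 and 29.2 CPM in neonatal cells and 27.1, 26.3 and 28.6 CPM in adult cells with neonatal supernatant (0.33 ± 0.18, adjusted p = 0.19). With adult supernatant it was 54.1, 43.4 and 36.9 CPM in neonatal cells, against 11.1, 13.6 and 11.2 CPM in adult cells (1.89 ± 0.18, adjusted p = 2e-06). The gap of 7 cell cycle genes was smaller than with adult supernatant at the threshold (1.16% of all genes had a more negative difference). None had a smaller gap than in medium (0.361% of all genes). The mitotic kinases Aurka and Plk1 rose by 0.83 and 0.60 with neonatal supernatant, and Ccnd1, a cyclin of early G1, fell by 0.65. The count rested on single libraries, since 5 genes rose without neonatal library 1 and 5 without adult library 3, and TMM scaling gave 7 higher and 2 lower.

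In the p53 and senescence list 7 of 20 genes rose (median 0.19), and Cdkn2a and Sesn1 fell (1 without neonatal library 2 or any 1 adult library). In medium 2 were higher and 10 lower (median -0.19), where 16.7% of all genes were higher and 12% lower. With adult supernatant 3 were higher and 2 lower (median 0.11), against 14.7% and 5.86% of all genes. For 2 of the 20 the difference was more positive than in medium at the threshold (0.493% of all genes). Cdkn1a, the p53 target p21, was 792, 750.4 and 812 CPM in neonatal cells, against 650.4, 658 and 677 CPM in adult cells (0.25 ± 0.06, adjusted p = 0.0045), whereas in medium it was lower in neonatal cells (-0.31 ± 0.06, adjusted p = 0.00074). Cdkn2a, which accumulates in senescent cells, was 96.7, 107 and 109 CPM in neonatal cells, against 138, 149 and 149.6 CPM in adult cells (-0.48 ± 0.08, adjusted p = 0.00016). Of 16 oxidative stress genes 6 rose and 4 fell. Gpx3, a secreted peroxidase, was 17.99, 18.2 and 12.1 CPM in neonatal cells, against 94.1, 107 and 109 CPM in adult cells (-2.70 ± 0.13, adjusted p = 5.8e-10). Txnrd1 and Hmox1, targets of the stress factor NRF2, rose by 1.06 and 0.33. Cholesterol synthesis genes were mostly not called, with 1 of 23 higher and 3 lower (none higher without any 1 of the neonatal libraries or adult library 2). With adult supernatant 14 were higher, where 14.7% of all genes were. Of the cholesterol synthesis genes 8 had a more negative difference than with adult supernatant (1.16% of all genes) and none a more positive one. Hmgcs1, an enzyme early in that pathway, was 71.1, 83.6 and 70.4 CPM in neonatal cells and 76.7, 70.6 and 75.8 CPM in adult cells (0.01 ± 0.09). In glycolysis and hypoxia, 2 of 20 rose and 4 fell, and neonatal library 3 was the lowest neonatal one in all 20. Without it 6 rose and 3 fell, whereas without neonatal library 2 none rose and 7 fell, and without neonatal library 1 none rose and 4 fell.

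Markers of other cell types bear on a bulk comparison. Endothelial markers were low and lower still in neonatal cells, 7 of 10 falling (median -1.65), with a summed level of 30.1, 22.8 and 28.7 CPM in neonatal cells against 66.6, 68.9 and 59.5 CPM in adult cells. Pecam1 was 4.20, 3.92 and 2.50 CPM in neonatal cells, against 11.3, 14.9 and 11.3 CPM in adult cells (-1.84 ± 0.37, adjusted p = 0.0012). Of 11 macrophage markers, summing to 61.2, 97.2 and 86.7 CPM in neonatal cells and 98.8, 128 and 114 CPM in adult cells, 3 fell and none rose, or 1 without neonatal library 1 or adult library 2. Ptprc, the common leukocyte antigen, was 1.27, 4.33 and 1.82 CPM in neonatal cells and 6.38, 4.79 and 3.54 CPM in adult cells (-1.14 ± 0.55). Of 5 measured T cell markers Cd4 was called, at 0.387, 1.04 and 0.162 CPM in neonatal cells and 1.99, 2.42 and 1.28 CPM in adult cells, and all 5 summed to 5.53, 7.92 and 3.65 CPM in neonatal cells and 8.66, 8.24 and 6.05 CPM in adult cells. Other T cell markers of the list, such as Cd3e, were not found among the deposited genes, so no level is given for them. Of 7 Schwann cell markers 3 rose and 1 fell, each under 7 CPM, with Foxd3 at 3.78, 3.49 and 2.13 CPM in neonatal cells and 0.466, 0.285 and 0.257 CPM in adult cells (3.23 ± 0.51). Mural cell markers split, with Mcam and Cspg4 higher and Pdgfrb lower among 6. Skeletal muscle (1 higher and 1 lower of 4), keratinocyte (1 higher of 5) and adipocyte markers (1 higher and 1 lower of 4) gave few calls, and the calls of mural, Schwann and adipocyte markers moved by 1 as single libraries were left out. The part of these cells in the complement, chemokine and interferon results was not tested.

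Beyond the lists, the largest rises of called genes with a level of at least 5 CPM included Ngfr, the nerve growth factor receptor, at 43.3, 46.6 and 41.9 CPM in neonatal cells against 1.70, 1.00 and 0.782 CPM in adult cells (5.32 ± 0.40, adjusted p = 9.7e-08). Crabp1, a retinoic acid-binding protein, was 66.1, 52.3 and 54.3 CPM in neonatal cells, against 4.30, 3.40 and 3.01 CPM in adult cells (4.02 ± 0.18, adjusted p = 1.8e-10), and Ppbp, a neutrophil chemokine of platelets, rose by 3.85. The largest falls included the matrix proteins Dpt and Abi3bp. Dpt was 0.801, 1.27 and 1.44 CPM in neonatal cells, against 17.4, 30.1 and 30.97 CPM in adult cells (-4.48 ± 0.47, adjusted p = 3.7e-06), and Abi3bp was 6.43, 10.2 and 7.25 CPM against 128, 116 and 125 CPM in adult cells (-3.97 ± 0.27, adjusted p = 2.5e-08). Prl2c2, a proliferin with close copies, fell by 3.63. Pcx, which makes oxaloacetate from pyruvate, was listed at the lowest value in all 3 neonatal libraries, against 6.15, 17.6 and 11.6 CPM in adult cells, while in medium it was 5.54, 2.67 and 8.50 CPM in neonatal cells and 2.68, 5.58 and 0.127 CPM in adult cells. Dak, a sugar kinase, was 5.69, 5.07 and 11.7 CPM in neonatal cells and 0.127, 0.127 and 0.226 CPM in adult cells, and 8.80, 2.97 and 2.25 CPM in neonatal cells and 4.41, 4.07 and 5.10 CPM in adult cells in medium. No fold is given for these genes, since 1 of their groups lies at or near the lowest value. Apart from these, some of the largest differences were in genes listed close to the lowest value in all libraries of adult cells in every condition: Rps2-ps10 (89.6, 80.5 and 77.9 CPM in neonatal cells and 0.512, 0.871 and 0.568 CPM in adult cells), Rps2-ps6, Rpl34-ps1 and Ifi202b. Of 56 genes whose names mark a pseudogene or related sequence 4 were at least 16-fold higher, as were 9 of 470 predicted genes and 6 of 13865 other genes. Such genes can be present or absent between mouse strains, and strain and age cannot be told apart here.

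The age difference was largely shared with the other conditions. Of the genes higher with neonatal supernatant 63.0% were also higher in medium (66.1% of those higher there), and of the lower ones 53.5% were also lower (55.1%). With adult supernatant the shares were 54.9% of the higher genes (65.1% there) and 34.6% of the lower ones (72.7% there). No library is shared between these comparisons, but the cells of each age come from the same source. In all 3 conditions 1040 genes were higher and 446 lower. Over the 4290 genes called with neonatal supernatant, the differences correlated with those in medium at Pearson's r = 0.823 and with those under adult supernatant at 0.801, a description across genes, which are not independent replicates.

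**Figure D5:**
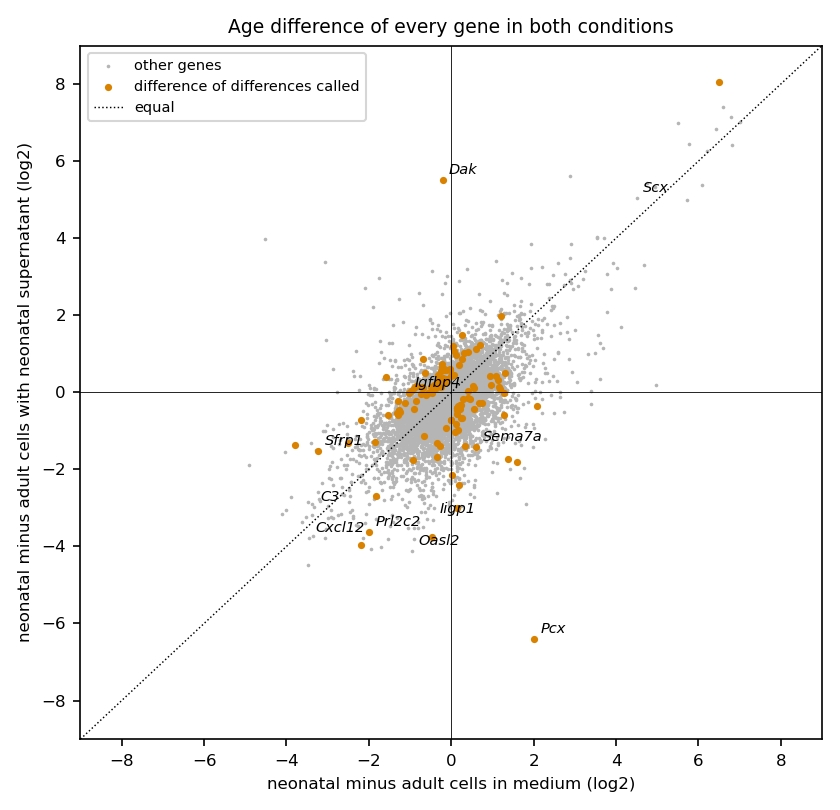
Neonatal minus adult log2 difference of each gene with neonatal supernatant (vertical axis) against the difference in medium (horizontal axis), with the 123 genes coloured whose 2 differences differ at the threshold and a dotted line where both are equal. Dak lies far above the line, and Pcx far below it.

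Few genes were called for a change of the age difference with the treatment. With 3 libraries per group the test cannot tell an unchanged difference from a change too small to call. Against medium 123 genes (0.855%) were called, 71 with a more positive (0.493%) and 52 with a more negative difference (0.361%), and 1934 had an unadjusted p under 0.05. Against adult supernatant 221 (1.54%) were called, 54 more positive (0.375%) and 167 more negative (1.16%), with 2079 at an unadjusted p under 0.05. Of the 917 genes higher with neonatal supernatant and not in medium 22 were called in the direct test, and of the 818 lower ones 24. The counts moved with single libraries: the one against medium lay between 33 and 228 and the one against adult supernatant between 120 and 333 as each library was left out.

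Sfrp1 stood higher with neonatal supernatant than in medium at both ages, and its age gap was narrower. It was 56.3, 50.7 and 44.9 CPM in neonatal cells and 442, 560.4 and 427 CPM in adult cells in medium, a difference of -3.23 against -1.53 with neonatal supernatant (change 1.70 ± 0.18, adjusted p = 0.0003). Xdh, xanthine dehydrogenase, was also closer between ages, with differences of -1.32 with neonatal supernatant and -2.50 in medium (change 1.18 ± 0.13). Igfbp4 was not called between ages with neonatal supernatant, at 565, 524 and 531 CPM in neonatal cells and 546, 485 and 631 CPM in adult cells, and lower in neonatal cells in medium, at 567, 564 and 531 CPM against 1012, 1113 and 1284 CPM in adult cells (change 1.00 ± 0.13, adjusted p = 0.0013). Sema7a, a membrane semaphorin, differed in opposite directions: it was 7.23, 9.48 and 7.01 CPM in neonatal cells and 18.7, 20.97 and 23.9 CPM in adult cells with neonatal supernatant, and 16.7, 17.6 and 17.6 CPM in neonatal cells and 11.4, 12.5 and 10.2 CPM in adult cells in medium (change -2.04 ± 0.18, adjusted p = 5.8e-05). Spp1 likewise was lower in neonatal cells with neonatal supernatant and was not called in medium, at 354, 338 and 323 CPM in neonatal cells and 299.8, 283 and 320.1 CPM in adult cells (change -1.14 ± 0.20, adjusted p = 0.015).

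Some matrix genes differed in opposite directions between the supernatants. Col14a1, a collagen on the fibril surface, was 33.6, 49.6 and 33.7 CPM in neonatal cells and 76.8, 106 and 157 CPM in adult cells with neonatal supernatant. With adult supernatant it was 22.4, 25.5 and 33.1 CPM in neonatal cells and 5.34, 8.49 and 9.07 CPM in adult cells (change -3.34 ± 0.35, adjusted p = 0.00025). Tgfbi, a TGF-beta-induced matrix protein, was 16.6, 21.1 and 17.4 CPM in neonatal cells and 31.99, 35.3 and 50.9 CPM in adult cells with neonatal supernatant, and 14.9, 16.9 and 15.1 CPM in neonatal cells and 4.67, 3.67 and 3.70 CPM in adult cells with adult supernatant (change -3.05 ± 0.36, adjusted p = 0.00043). In both genes adult cells held the larger spread between treatments. Hmox1, which degrades haem, was 1255, 1002 and 1153 CPM in neonatal cells and 954, 824 and 925 CPM in adult cells with neonatal supernatant, and 1617, 1737 and 1632 CPM in neonatal cells and 2904, 2788 and 2747 CPM in adult cells with adult supernatant (change 1.09 ± 0.10, adjusted p = 0.00012). Of the oxidative stress list 5 genes had a more positive difference than with adult supernatant (0.375% of all genes) and 1 a more negative one (1.16%). Nid1, a basement membrane protein, was lower in neonatal cells with both supernatants, at -0.65 ± 0.08 with neonatal and -1.70 ± 0.08 with adult supernatant (change 1.05 ± 0.12).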

How the data were processed

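RNA of mouse tendon cells was sequenced in 18 libraries of 6 groups, of which the 6 with neonatal supernatant are compared here. The deposited values are log2 CPM of 14391 genes, for which kallisto, limma 3.56.2 and the build GRCm39 are named, per the submitters' processing notes. No kallisto version is named there. Each deposited gene reaches 1 CPM in 3 or more libraries. All 18 libraries share a lowest value of 0.127 CPM, and if that is an offset of 2 reads, which no label states, 3 reads are 0.190 CPM at the mean depth, for counting error only. The depth of each library is unknown. Of the row names 21 read as dates and 14189 match a RefSeq symbol or synonym.

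The log2 CPM were fitted with limma 3.58.1 (R 4.3.3) over all 18 libraries, with a mean-variance trend, a term per group and no replicate block. Contrasts were neonatal minus adult cells in each condition, and the change of that difference between conditions. P-values were two-sided and adjusted over all genes. The fit was tested on simulated data. TMM factors were computed from the CPM with numpy 2.4.6. Some genes that the rule below names are not reported here. No count test was run, since the deposited values are not counts. The 34 gene lists (653 of 721 memberships measured) and the comparison were chosen with earlier results of these data known. Genes named were the 12 largest called rises and falls among genes with 5 CPM or more in the higher group and no overlap (predicted and clone names left out), the 4 smallest p-values of each list at most, 10 genes per direction of each change test, and a set of tendon and inflammation genes whatever their values. Reads of near-identical copies may be split by the authors' estimation. Alternatives were other scalings, pseudocounts, a 5 CPM filter, array weights, no trend, a replicate block, fewer groups, a 2-fold limit and each library left out. The recounts of lists under these settings were added after the data were seen.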

Additional observations from a re-analysis of the deposited data

Results flagged for a closer look

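The results below were picked out because the age difference itself, neonatal minus adult cells, differed between conditions by a test of that change in the limma fit, and each value is the change in log2 units. Positive values mean that neonatal cells stood higher, relative to adult cells, with neonatal supernatant than in the other condition. The values come from the 10 genes with the smallest p in each direction of each of 2 tests, so they were chosen by the test that describes them.

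Against medium the positive changes were 1.70 for Sfrp1, a Wnt antagonist, 1.18 for Xdh, 1.00 for Igfbp4, an IGF-binding protein, 1.02 for Adra1d, an adrenergic receptor, and 1.08 for Sema3c, a secreted semaphorin. They were smaller for Fam115c (0.59), the growth factor Figf (0.94), Tsku (0.72) and the cell cycle inhibitor Cdkn1a (0.56). Dak had a fitted change of 5.71, and its adult libraries with neonatal supernatant lay at or near the lowest value in the table.

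The negative changes against medium were -1.64 for Prl2c2, -1.14 for Spp1, the matrix protein osteopontin, -2.04 for Sema7a and -1.86 for Gcnt4, a glycosyltransferase. Adcy7, an adenylyl cyclase, had -1.13, Gpr124 had -0.92, Raph1 had -0.93 and Fam46a had -1.13. The stress gene Nupr1 had -0.81 and Pdia5, a protein disulphide isomerase, had -0.58.

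Against adult supernatant the positive changes were 1.20 for Txnrd1 and 1.09 for Hmox1, both oxidative stress genes, and 1.05 for Nid1, of basement membranes. Marcksl1 had 0.86, the p53 inhibitor Mdm2 had 0.68, the transporter Abcc1 had 0.67 and the haem transporter Slc48a1 had 0.63. Hmga2 had 0.62 and the esterase Esd had 0.57. Dak again had a fitted change of 5.20, which is no bound.

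The negative changes against adult supernatant were -3.34 for Col14a1 and -3.05 for Tgfbi, both matrix genes, -1.96 for the complement protease C1s1, -1.54 for the protease Mmp11 and -1.54 for the mitotic kinesin Kif22. Slc44a2 had -1.03, Gas6, a ligand of TAM receptors, had -0.82, the desaturase Fads2 had -0.82 and the collagen Col8a1 had -0.75.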

How the results depend on the processing

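With neonatal supernatant the count of 4290 called genes lay between 3250 and 3935 as each of the 6 libraries was left out. It ranged from 2966 to 3827 around 4122 in medium, from 2051 to 2571 around 2964 with adult supernatant, from 33 to 228 around 123 for the change against medium and from 120 to 333 around 221 for the change against adult supernatant. The extremes against medium came without adult-cell libraries 2 and 3 of neonatal supernatant, and those against adult supernatant without adult-cell libraries 1 and 2 of adult supernatant. A limit of at least 2-fold left 1019, 890, 621, 38 and 94 genes in that order, by its construction. Array weights gave 209 genes against medium and 520 against adult supernatant. For the change against medium, no variance trend gave 29 genes and a fit of only the groups compared gave 39. Without both medium libraries of high type I interferon level 59 genes were called there and 2322 in medium, with fewer samples. The cause of the other shifts was not tested. No other total count of genes moved by over 1.5 times. The split moved more: with adult supernatant 2120 genes were higher and 844 lower (71.5% higher), against 1247 and 1248 under TMM scaling (49.98%) and 1542 and 1201 under quantile normalization (56.2%). Neither other scaling moved the median of all genes by over 0.1.

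List medians that turned sign when 1 library was left out were those of interleukin-17 targets (-0.34 to 0.18), tendon genes (-0.23 to 0.016), cholesterol synthesis (-0.17 to 0.0095), chemokines (-0.25 to 0.086), T cell markers (-0.55 to 0.052), cartilage and bone (-0.19 to 0.074), glycolysis and hypoxia (-0.12 to 0.13), limb and Hox genes (-0.054 to 0.075) and oxidative stress (-0.026 to 0.025), and that of keratinocyte markers was 0.72 with at least 5 CPM. The 2-fold limit was not applied to the named genes. Of 170 named genes called with neonatal supernatant, 149 were called under every other alternative and 21 were not under at least 1, among them Cxcl9, Cxcl10, Tnmd, Saa3 and Il13ra2, while 12 others were gained. For the changes, 15 of 20 named genes held against medium and 20 of 20 against adult supernatant. A replicate block gave 4208, 4031, 2898, 115 and 213 genes. Samples with the same number deviated together hardly at all (correlations of 0.018, 0.011 and 0.037), replicates 1 and 3 correlating best with their own number and replicate 2 not, so the numbers are not treated as a pairing. Low genes are limited by the offset of the deposited values.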
